A study of Mus musculus with 20 samples.

Results

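The genes described here encode oxidative phosphorylation (OXPHOS), the set of 5 protein complexes in the inner mitochondrial membrane that turn fuel oxidation into ATP, measured by RNA sequencing in the livers of 20 mice. They were chosen by symbol from the gene count table: Nduf genes (complex I), Sdha to Sdhd (complex II), Uqcr genes (complex III), Cox4 to Cox8 genes (complex IV), Atp5 genes (complex V) and the mitochondrially encoded mt-Nd, mt-Co, mt-Cytb and mt-Atp genes. Of 55487 gene identifiers, 108 symbols matched. The rule left out 3 processed copies with "-ps" in the symbol and 5 genes with fewer than 100 counts over all libraries, so 100 genes remained. Of these, 87 are nuclear genes, spread over 19 chromosomes with 3 of them on X, and 13 lie on the mitochondrial genome. All 100 passed the filter on low counts in the comparison of high-fat diet with chow.

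Complexes I to IV pass electrons from NADH and succinate to oxygen and, except for complex II, pump protons across the membrane, and complex V (ATP synthase) uses the returning protons to make ATP. The mitochondrial genome encodes the hydrophobic core of complexes I, III, IV and V and is transcribed as long precursors from both strands, which are then cut into the separate messengers. All subunits of complex II and the remaining subunits of the other complexes are made from nuclear genes and imported. Liver is rich in mitochondria and uses OXPHOS for gluconeogenesis, ureagenesis and fatty acid oxidation.

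All mice were female C57BL/6J and 28 weeks old when liver RNA was taken. The chow group (n = 5) received chow throughout. The other 15 mice received a high-fat diet (HFD) from 8 weeks of age for 10 weeks and then, for another 10 weeks, isocaloric HFDs with 50% of the protein from fishmeal made of salmon by-products (n = 5), from salmon filet (n = 6) or from beef (n = 4). Every library was made from 1 mouse. The design therefore lets chow be compared with HFD, and the protein sources with each other, but it holds no mice on the unsupplemented HFD. Mouse 31 is labelled as a salmon filet mouse but its column in the count table is named as beef. The paper describes diet groups of equal size for sequencing, which is met only with this mouse counted as beef. Mouse 31 was kept as labelled, and results by protein source that depend on it are given both ways. The main salmon filet and beef values therefore rest on the labels, which give groups of unequal size. Which diet this mouse received was not tested.

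The libraries held 42526234 to 70266136 counts over genes. In 19 libraries 93.2 to 95.6% of counts lay on protein coding genes, and in mouse 35, on beef, 84.3%. The 8 hepatocyte markers together stood at 100965 to 126264 CPM (read counts divided by the normalised library total) on chow and 91064 to 120432 CPM on HFD, and markers of fat, skeletal muscle and exocrine pancreas each stood below 1 CPM on average, with Lep, Ckm and Myh4 at 0 in every library. By edgeR at an adjusted p under 0.05, all 4 B cell markers and 3 of 6 T cell markers were lower on HFD. Only 2 of the 4 B cell markers and 0 of the 6 T cell markers averaged at least 1 CPM. Also called were 1 of 5 liver endothelial and 1 of 4 cholangiocyte markers, both lower, and 1 of 5 red blood cell markers, higher. Of all genes tested, 5.21% were lower and 4.54% higher. Clock genes also moved with diet: 7 of 7 late phase genes were higher on HFD, and a score of late minus early phase genes ran from -3.31 to -1.26 on chow and from -2.36 to 3.88 on HFD. In bulk liver, fewer cells of a type and less RNA per cell cannot be told apart.

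A long stretch of the mitochondrial genome has an almost exact nuclear copy. The sequences at issue are shown because they decide which reads can be assigned to the mitochondrially encoded genes that lie inside or partly inside it. Base positions refer to the mouse build GRCm38 with the GENCODE M21 transcripts. On the minus strand of chr1:24611535-24616197, 7 annotated genes match mitochondrial positions 6390 to 11042, a stretch of 4653 bases, and aligned bases were identical apart from 1 substitution, A1066T, counted from the first base of mt-Co1 and giving the mt-Co1 base first. The first 90 bases of mt-Atp6 (chrM:7927-8016, plus strand) and of its copy Gm10925 (chr1:24614562-24614651, minus strand) are the same throughout. Capitals mark the 43 bases in which mt-Atp6 overlaps the end of mt-Atp8 (chrM:7880-7969 shown), the neighbouring gene on the same messenger.
mt-Atp6: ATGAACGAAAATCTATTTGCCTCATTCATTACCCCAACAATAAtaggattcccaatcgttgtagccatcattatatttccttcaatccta
Gm10925: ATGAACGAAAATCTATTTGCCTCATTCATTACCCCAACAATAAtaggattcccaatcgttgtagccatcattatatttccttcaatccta
mt-Atp8 end: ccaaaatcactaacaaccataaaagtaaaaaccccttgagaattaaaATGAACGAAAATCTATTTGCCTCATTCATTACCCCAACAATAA

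Ends that did not match were left out of the alignments, which in mt-Nd3 began at base 4. The offset between mitochondrial and chromosome 1 positions also changes between mt-Nd3 and mt-Nd4l. The copy can therefore differ at further bases. Among aligned bases, the only substitution found lies near the start of the copied stretch, in mt-Co1 (chrM:6390-6449, plus strand) and its partial copy Gm29216 (chr1:24616129-24616188, minus strand). Capitals mark the substituted base.
mt-Co1: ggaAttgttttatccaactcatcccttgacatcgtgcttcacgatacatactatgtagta
Gm29216: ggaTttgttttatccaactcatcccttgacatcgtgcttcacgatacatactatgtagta

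Reads were 50 bases long. In mt-Co2, mt-Atp6, mt-Co3, mt-Nd3 and mt-Nd4l, 98.0 to 100% of all 50-base words also occur in another annotated transcript. A read from these genes therefore fits at least 2 places in the genome equally well, and how such reads were assigned is not given in the sources used here. The annotated copies hold only the last 43 bases of mt-Atp8, too few for a shared 50-base word, although the gene lies within the copied stretch. Values of these 6 genes are uncertain for this reason. In mt-Co1 and mt-Nd4, which lie partly inside the stretch, 51.1% and 62.2% of the words also occur in another annotated transcript. Their values are uncertain in part.

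Mitochondrially encoded genes supplied most of the OXPHOS messengers. Levels were compared between genes in TPM, which scales counts for both gene length and library size. The mean TPM of the 13 mitochondrially encoded genes summed to 143214 and that of the 87 nuclear genes to 10656, with medians per gene of 2290 and 78.6 TPM. By complex, the sums were 58945 TPM mitochondrially encoded and 3238 TPM nuclear for complex I, 33930 and 1695 TPM for complex III, and 49684 and 2289 TPM for complex IV. In complex V the order was the other way, with 654 TPM from mt-Atp6 and mt-Atp8 and 2585 TPM from 16 nuclear genes, but both of those mitochondrially encoded genes lie in a copied stretch, so this order is uncertain. Complex II, which has no mitochondrially encoded subunit, summed to 848 TPM.

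**Figure D1:**
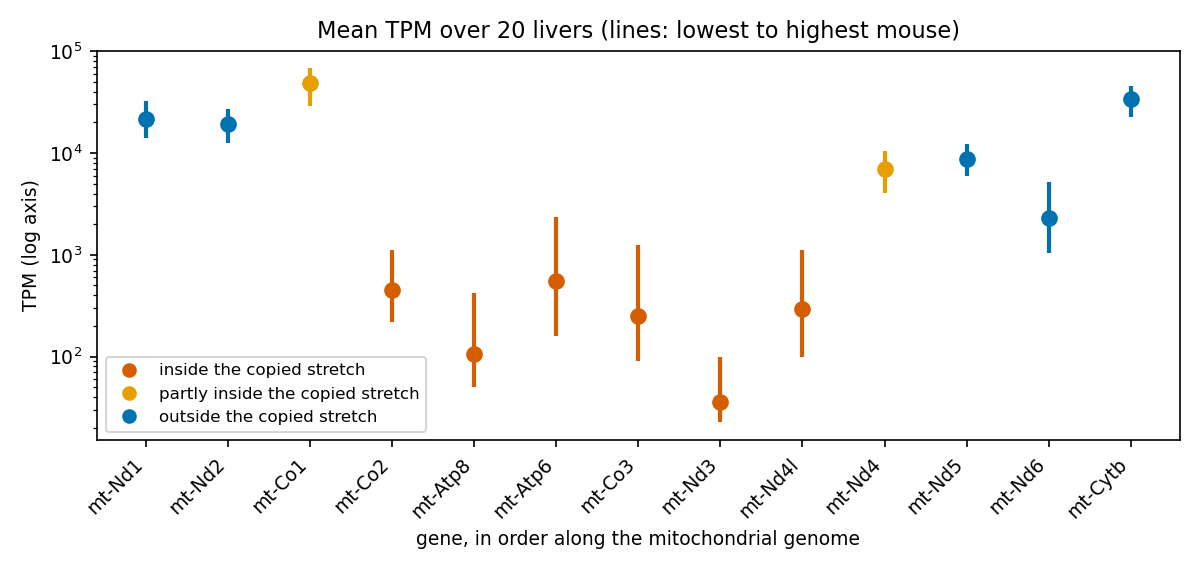
Points show the mean TPM over 20 mice, on a log axis, for the 13 mitochondrially encoded genes in their order along the mitochondrial genome. Lines run from the lowest to the highest mouse. Colour shows whether the gene lies inside, partly inside or outside the stretch copied on chromosome 1. The 6 genes inside the stretch have mean levels of 36.1 to 548 TPM and the 5 outside have 2290 to 33930 TPM.

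Within the mitochondrial genome, levels followed position relative to the copied stretch. The 5 genes outside it were mt-Nd1 (21412 TPM), mt-Nd2 (19308 TPM), mt-Nd5 (8678 TPM) and mt-Nd6 (2290 TPM), all core subunits of complex I, and mt-Cytb (33930 TPM), the cytochrome b of complex III. The catalytic subunit mt-Co1 (48984 TPM) and the complex I subunit mt-Nd4 (6925 TPM) lie partly inside. The 6 genes inside stood far lower: mt-Co2 at 449 TPM and mt-Co3 at 251 TPM (complex IV), mt-Atp6 at 548 TPM and mt-Atp8 at 106 TPM (complex V), and mt-Nd4l at 296 TPM and mt-Nd3 at 36.1 TPM (complex I). The highest of the 6 was lower than the lowest of the other 7. No messenger level can be read from these 6 values alone, because it was not tested how many of their reads were lost or placed elsewhere.

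Among the nuclear genes, the structural subunits had a median of 90.9 TPM and the 8 complex I assembly factors, which help build the complex and are not part of it, a median of 10.5 TPM. The nuclear gene with the highest mean in each complex was Ndufa1 for complex I (394 TPM), Sdha, the flavoprotein of succinate dehydrogenase, for complex II (369 TPM), Uqcrb for complex III (509 TPM), Cox6b1 for complex IV (515 TPM) and Atp5a1, the alpha subunit of the catalytic head, for complex V (589 TPM).

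In each isoform family of complex IV, the widely expressed form stood above the forms known from other tissues. Cox4i1 stood at 306 TPM, while Cox4i2, known from lung, had 70 counts over all 20 libraries. Cox6a1 stood at 133 TPM, and the heart and muscle form Cox6a2 had 27 counts. Cox6b1 (515 TPM) exceeded the testis form Cox6b2 (0.583 TPM), and Cox7a2 (196 TPM) exceeded the heart and muscle form Cox7a1 (6.37 TPM). The last 2 orders held in every mouse. Cox7a2l, which takes part in the assembly of supercomplexes, stood at 167 TPM, and its range over mice (138 to 185 TPM) overlapped that of Cox7a2 (120 to 239 TPM). Cox8a stood at 170 TPM against 11 counts for Cox8b and 0 for Cox8c, and Cox7b at 213 TPM against 0 counts for Cox7b2. Ndufa4, which was named after complex I but belongs to complex IV, stood at 267 TPM and its paralogue Ndufa4l2 at 3.91 TPM. The 3 genes for the c subunit, which forms the rotating ring of ATP synthase, were ordered Atp5g3 (121 TPM), Atp5g2 (59.3 TPM) and Atp5g1 (38.3 TPM), in every mouse.

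As a share of all counts, OXPHOS expression differed between chow and HFD by less than the spread between mice. Mitochondrially encoded genes took 7.78% ± 1.41 (SD, n = 5) of the counts on chow, from 6.61 to 10.0%, and 7.05% ± 1.1 (SD, n = 15) on HFD, from 4.88 to 9.33%. The nuclear genes took 0.727% ± 0.0351 on chow and 0.744% ± 0.0810 on HFD, the latter from 0.640 to 0.923%. Both pairs of ranges overlapped. By protein source the mitochondrially encoded share was 7.71% ± 0.971 (fishmeal, n = 5), 6.79% ± 0.552 (salmon filet, n = 6) and 6.63% ± 1.67 (beef, n = 4), or 6.68% and 6.77% for the latter pair with mouse 31 counted as beef. Summed nuclear TPM were 6.93% ± 1.3 of summed mitochondrially encoded TPM on chow and 7.88% ± 1.45 on HFD, between 4.82% in mouse 1 (chow) and 9.39% in mouse 35 (beef). Mouse 1 had the highest mitochondrially encoded share, and without it the difference between the diets shrank from -0.72 to -0.16 percentage points.

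**Figure D2:**
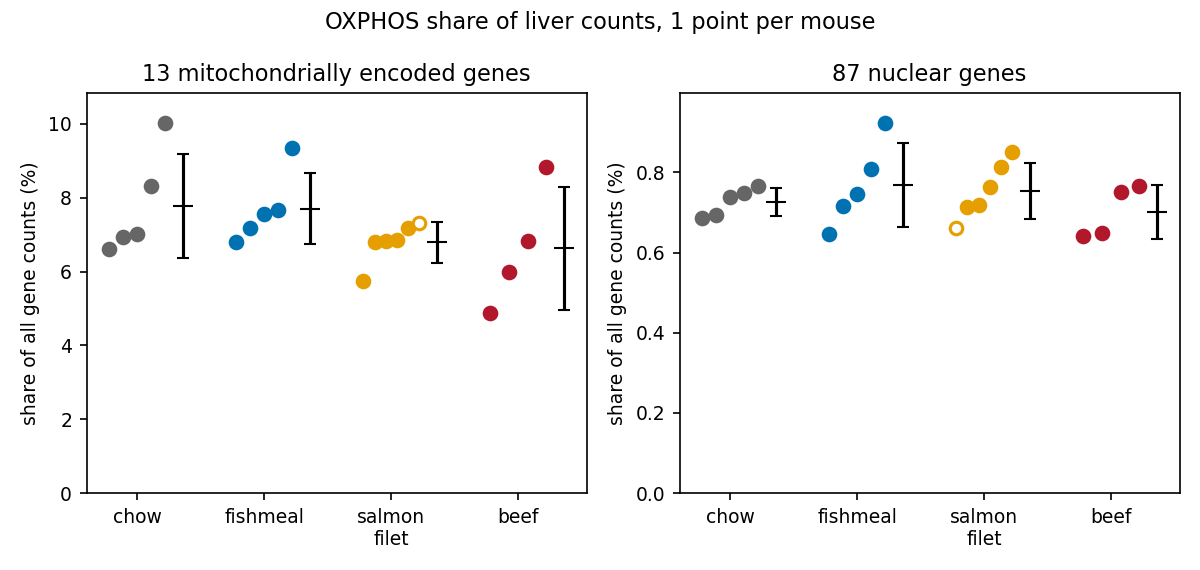
Share of all gene counts (%) taken by the mitochondrially encoded and by the nuclear OXPHOS genes in each mouse, by diet group, with each axis starting at 0. The groups overlap in both panels, mouse 1 on chow is highest for the mitochondrially encoded genes (10.0%), and mouse 12 on fishmeal is highest for the nuclear genes (0.923%).

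Single nuclear genes changed little between chow and HFD. Differential expression was tested with edgeR's quasi-likelihood test on 17120 genes, and a gene was called at a Benjamini-Hochberg adjusted p under 0.05. Of all genes tested, 9.75% were called (4.54% higher and 5.21% lower on HFD). Of the 100 OXPHOS genes, 0 were called higher and 2 were called lower: the ATP synthase subunit mt-Atp6 and the complex I assembly factor Ndufaf4. At an unadjusted p under 0.05, 5 were higher and 5 lower, against 12.1% and 12.3% of all genes. DESeq2 called 3 genes, adding Atp5s as higher, and limma called 2, the same pair as edgeR. No OXPHOS gene had CPM values that did not overlap between the diets, against 0.748% of all genes higher and 0.894% lower without overlap.

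The log2 fold change of HFD over chow was above 0 for 66 of 87 nuclear genes (75.9%), with a median of 0.10, against 50.9% and 0.0050 for all genes tested. For the mitochondrially encoded genes it was above 0 for 4 of 13, with a median of -0.18. In 85 of the 87 nuclear genes it lay within 0.5 of 0. The exceptions, chosen after their values were seen, were Ndufa2, an accessory subunit of complex I (0.52, SE 0.22, adjusted p = 0.153), and Uqcrq, a small subunit of complex III (0.62, SE 0.31, adjusted p = 0.218). Their libraries are the same mice, so the genes are not independent of each other, and no p is given for the medians. Without mouse 12 the nuclear median was 0.051, and without mouse 1 the mitochondrially encoded median was -0.026.

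**Figure D3:**
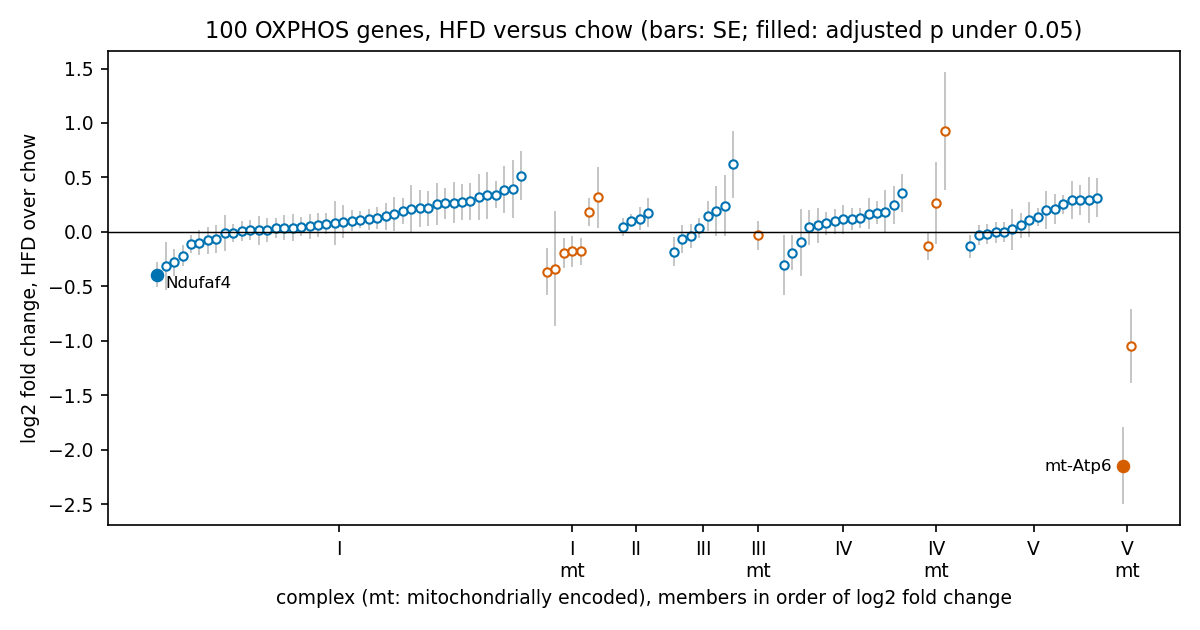
Log2 fold change of HFD (n = 15) over chow (n = 5) for each of the 100 OXPHOS genes, by complex and genome and in order of size, with mt marking mitochondrially encoded genes. Most nuclear genes lie between 0 and 0.5, and mt-Atp6 at -2.14 lies lowest.

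By complex, the nuclear medians of this log2 fold change were close to each other. Complex I, the NADH dehydrogenase, had a median of 0.087, with 34 of 44 genes above 0. Complex II, succinate dehydrogenase, had 0.11, with 4 of 4 above 0 and values from 0.041 for Sdhd to 0.18 for Sdhb. Complex III, the cytochrome c reductase, had 0.090, with 5 of 8 above 0. Complex IV, cytochrome c oxidase, had 0.12, with 12 of 15 above 0, and ATP synthase had 0.12, with 11 of 16 above 0. Every complex had a median over that of all genes, and edgeR called no nuclear gene of complexes II to V (DESeq2 called Atp5s of complex V higher).

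The most abundant nuclear genes show the size of these differences. Sdha had 540 to 587 CPM on chow and 567 to 679 CPM on HFD, with a median of 610 CPM, and differed by 0.10 on the log2 scale (SE 0.061, adjusted p = 0.308). Atp5a1 had 637 to 724 CPM on chow and 655 to 974 CPM on HFD, and differed by 0.14 (SE 0.084, adjusted p = 0.339). The ranges overlapped for both genes. The values for Ndufa1 (0.14), Cox6b1 (0.099) and Uqcrb (-0.18) did not pass the test either, with adjusted p of 0.524, 0.650 and 0.443. Among the isoform families, the log2 fold changes ran from -0.30 for Cox6b2 to 0.36 for Ndufa4l2, and the c subunit genes had 0.20 (Atp5g1), 0.025 (Atp5g2) and 0.31 (Atp5g3). None of these was called.

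mt-Atp6, the subunit a of the ATP synthase proton channel (chrM:7927-8607, plus strand), was lower on HFD. The 5 chow mice had 152, 509, 46.9, 601 and 407 CPM (mice 1, 2, 5, 7 and 10). The 15 HFD mice had 44.8 to 180 CPM, with a median of 65.1 CPM. Mice 2, 7 and 10 stood above every HFD mouse, mouse 1 stood within the HFD range, and mouse 5 stood near its lower end. The mean was 343 CPM ± 236 (SD, n = 5) on chow and 77.5 CPM ± 38.4 (SD, n = 15) on HFD, and the fitted log2 change was -2.14 (SE 0.35, adjusted p = 0.000398). The call held in each of the 20 fits without 1 library, with adjusted p from 2.49e-05 to 0.00372, and was lost with the clock score as a covariate (adjusted p = 0.163). Fits without 1 library do not test how reads shared with the copy were assigned.

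The nuclear copy of mt-Atp6 gave another picture. Gm10925, whose sequence is printed above, had 71.2 to 279 CPM on chow, 95.9 to 510 CPM in fishmeal mice, 60.1 to 127 CPM in salmon filet mice and 71.1 to 94.1 CPM in beef mice. Its log2 fold change of HFD over chow was 0.28 (adjusted p = 0.769). Of the counts on mt-Atp6 and Gm10925 together, mt-Atp6 held 35.2 to 86.1% in the chow mice and 9.97 to 53.7% in the HFD mice. With the counts of each copy added to its gene, which was tried after the data were seen, mt-Atp6 was no longer called in HFD against chow (log2 fold change -1.03, adjusted p = 0.0774), where 9.75% of all genes were called.

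Summed counts of mt-Atp6 and Gm10925 were lower in the salmon filet and beef mice than in most chow and fishmeal mice. The sums were 430, 591, 118, 715 and 485 CPM in chow mice 1, 2, 5, 7 and 10, and 380, 335, 567, 502 and 180 CPM in fishmeal mice 12, 13, 14, 16 and 20. They were 111 to 205 CPM in the 6 salmon filet mice, with a median of 155 CPM, and 149, 150, 126 and 116 CPM in beef mice 32, 35, 39 and 40. Chow mouse 5 lay among the salmon filet and beef mice and fishmeal mouse 20 within the salmon filet range, and the remaining chow and fishmeal mice lay above every salmon filet and beef mouse. On this sum, edgeR gave -0.26 for fishmeal over chow (adjusted p = 0.812), -1.58 for salmon filet over chow (adjusted p = 0.0191) and -1.80 for beef over chow (adjusted p = 0.0380) on the log2 scale, where 3.38%, 4.49% and 2.53% of all genes were called. With mouse 31 counted as beef, the sum was called for salmon filet over chow (adjusted p = 0.0332, with 4.43% of all genes called) and for beef over chow (adjusted p = 0.0226, with 3.06%). Fishmeal over salmon filet was 1.33 (SE 0.24, adjusted p = 0.0489), with 0.163% of all genes called in that fit, and it was not called with mouse 31 counted as beef (adjusted p = 0.112, with 0.17% of all genes called). Fishmeal over beef was 1.53 (adjusted p = 0.237, or 0.114 with mouse 31 counted as beef). The first 3 of these comparisons share the chow mice. In fits without 1 library, the call for salmon filet over chow was kept in 10 of 11 (lost without mouse 7, adjusted p = 0.0540), that for beef over chow in 1 of 9 (without mouse 5) and that for fishmeal over salmon filet in 1 of 11 (without mouse 20), with adjusted p up to 0.126 and 0.160.

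**Figure D4:**
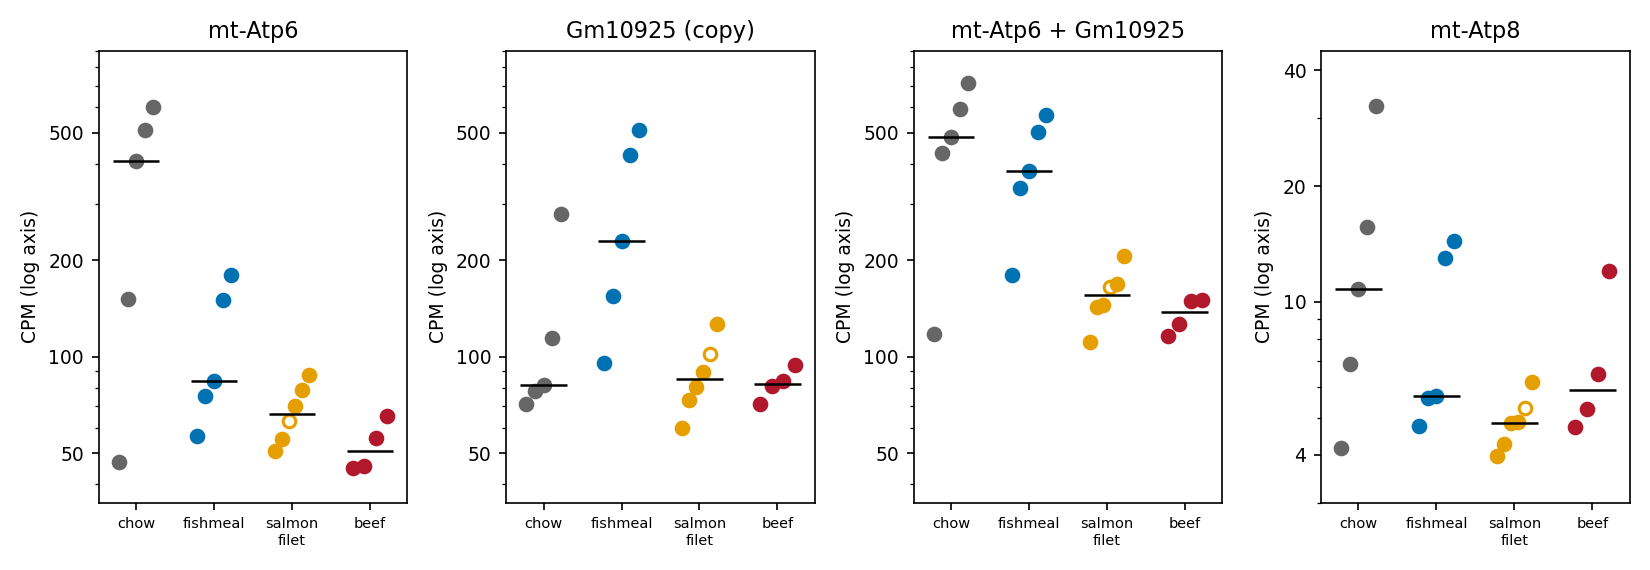
CPM on log axes in each mouse by diet group for mt-Atp6, its chromosome 1 copy Gm10925, their sum, and mt-Atp8. The sum is highest in 4 of 5 chow and 4 of 5 fishmeal mice (335 to 715 CPM) and lies between 111 and 205 CPM in the 6 salmon filet and 4 beef mice.

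mt-Atp8, a small subunit of ATP synthase (chrM:7766-7969, plus strand), is read from the same messenger as mt-Atp6 and had a lower fitted level on HFD that edgeR did not call. The chow mice had 6.90, 10.8, 4.16, 32.4 and 15.6 CPM, and the HFD mice 3.98 to 14.4 CPM, with a median of 5.29 CPM. Chow mice 7 and 10 stood above every HFD mouse and the other 3 did not. The log2 fold change was -1.04 (SE 0.34, adjusted p = 0.0529), and without mouse 7 it was -0.48 (adjusted p = 0.453). It was called in 5 of 20 fits without 1 library (lowest adjusted p 0.0177, without mouse 5), with upper quartile normalization (0.0499), among genes with at least 10 counts in every library (0.0467) and in the fit on all 4 groups (0.0435). This gene had at most 1526 counts in a library, a lower maximum than that of the others on the mitochondrial genome except mt-Nd3.

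Of the other 11 mitochondrially encoded genes, none was called by edgeR, DESeq2 or limma. With edgeR, mt-Nd5 was called higher with offsets for GC content and length (0.27, adjusted p = 0.0428) and mt-Co3 with the clock score as a covariate (2.04, adjusted p = 0.0350). In complex I the log2 fold changes were -0.20 for mt-Nd1, -0.18 for mt-Nd2, -0.36 for mt-Nd3, -0.34 for mt-Nd4l, -0.18 for mt-Nd4, 0.19 for mt-Nd5 and 0.32 for mt-Nd6, with adjusted p of 0.309 to 0.752. mt-Cytb, the subunit of complex III, had -0.032 (adjusted p = 0.918). In complex IV the values were -0.13 for mt-Co1, 0.26 for mt-Co2 and 0.92 for mt-Co3, with adjusted p of 0.598, 0.726 and 0.308. The spread between mice differed among these genes: mt-Cytb ranged from 11951 to 21046 CPM, while mt-Co3, whose product completes the catalytic core of complex IV, ranged from 30.4 to 374 CPM. The copies of these genes also took counts. The mt-Co2 copy Gm28661 had 35.7 to 714 CPM on chow and 27.4 to 174 CPM on HFD, beside 70.6 to 218 CPM and 68.2 to 375 CPM for mt-Co2 itself. The copies of mt-Co3 (Gm28437), mt-Nd3 (Gm28438) and mt-Nd4l (Gm10222) had 30.6 to 118, 2.70 to 67.0 and 9.14 to 61.4 CPM over all mice. With the counts of the copies added, mt-Nd3 was called lower on HFD (log2 fold change -1.23, adjusted p = 0.0494) and mt-Co2 turned from 0.26 to -0.64 (adjusted p = 0.338). In that fit 9.75% of all genes were called. The summed mt-Nd3 level was 71.5 CPM in chow mouse 2. The other chow mice had 7.48 to 21.3 CPM, within the HFD range of 5.98 to 32.8 CPM. The call was not tested without mouse 2.

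Ndufaf4 (chr4:24898083-24905001, plus strand), which acts in the assembly of complex I, was the only nuclear gene of the 87 called by edgeR. The chow mice had 28.4, 19.8, 18.7, 19.6 and 20.5 CPM, and the HFD mice 12.2 to 21.3 CPM, with a median of 16.3 CPM. All chow mice stood above the HFD median, and the ranges overlapped. The mean fell from 21.4 CPM ± 3.98 (SD, n = 5) to 16.3 CPM ± 2.72 (SD, n = 15), and the fitted log2 change was -0.39 (SE 0.12, adjusted p = 0.0358). The call was kept in 15 of 20 fits without 1 library and was lost without mouse 1 (-0.27, adjusted p = 0.211), mouse 2 (0.0530), mouse 7 (0.0509), mouse 13 (0.0533) or mouse 14 (0.0505). It was also lost with offsets for GC content and length (adjusted p = 0.0605) and with the clock score as a covariate (adjusted p = 0.280).

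The next genes by p were both related to ATP synthase by name. Atp5s (chr12:69724950-69744660, plus strand), a coupling factor that is not a structural subunit, had 3.71, 3.17, 3.69, 3.55 and 4.30 CPM on chow and 3.69 to 5.02 CPM on HFD, with a median of 4.49 CPM. Chow mouse 10 lay inside the HFD range and the others near or below its lower end. Its log2 fold change was 0.25 (SE 0.087, adjusted p = 0.0655 by edgeR and 0.0338 by DESeq2). Atp5sl (chr7:25619414-25625551, plus strand), which despite its symbol is a complex I assembly factor, had 20.8, 26.0, 31.4, 28.7 and 28.7 CPM on chow and 23.8 to 48.2 CPM on HFD, with a median of 34.2 CPM. Its ranges overlapped too, and its log2 fold change was 0.34 (SE 0.12, adjusted p = 0.0781).

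Each protein source was then compared with chow. These 3 comparisons share the chow mice and are not independent of each other. With fishmeal, edgeR called 0 OXPHOS genes, against 3.38% of all genes, as did DESeq2 and limma, and 4 genes passed an unadjusted p under 0.05, against 16.9% of all genes. With salmon filet, 3 genes were called, against 4.46% of all genes, each with a lower level: mt-Atp6 (-2.34, SE 0.47, adjusted p = 0.0168), Ndufaf4 (-0.48, adjusted p = 0.0430) and mt-Atp8 (-1.50, adjusted p = 0.0490). DESeq2 called 5, adding as higher Atp5k, a subunit of ATP synthase (0.28, adjusted p = 0.0724 by edgeR), and Cox7b, a subunit of complex IV (0.19, adjusted p = 0.114 by edgeR), and limma called Ndufaf4 alone. With beef, 1 gene was called, mt-Atp6 (-2.71, adjusted p = 0.0395), against 2.48% of all genes, by DESeq2 too, and limma called 0.

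These calls rest on few mice. For salmon filet, mt-Atp6 kept its call in 11 of 11 fits without 1 library, Ndufaf4 in 1 of 11 (without mouse 5) and mt-Atp8 in 2 of 11 (without mouse 1 or mouse 5), and with mouse 31 counted as beef the call was kept for mt-Atp6 alone (4.42% of all genes called). For beef, the call of mt-Atp6 was kept without mouse 1 or mouse 5 and lost in the 7 other fits without 1 library, with adjusted p up to 0.129. With mouse 31 counted as beef it was kept (adjusted p = 0.0217, with 3.05% of all genes called).

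The median log2 fold change of the nuclear genes was 0.15 for fishmeal (76 of 87 above 0), 0.091 for salmon filet (66 of 87) and 0.034 for beef (49 of 87). The corresponding medians of the 13 mitochondrially encoded genes were -0.017, -0.24 and -0.25, and without chow mouse 1 they were 0.13, -0.056 and -0.10. With mouse 31 counted as beef, salmon filet and beef had nuclear medians of 0.13 and 0.00044 and mitochondrially encoded medians of -0.32 and -0.17. The median over all genes was -0.0055, 0.012 and -0.0066. In the fishmeal group the nuclear value came largely from mouse 12, and without that mouse it was 0.0093. The nuclear median for salmon filet was 0.046 without mouse 25, and that for beef ran from -0.0037 (without mouse 1) to 0.077 (without mouse 32).

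**Figure D5:**
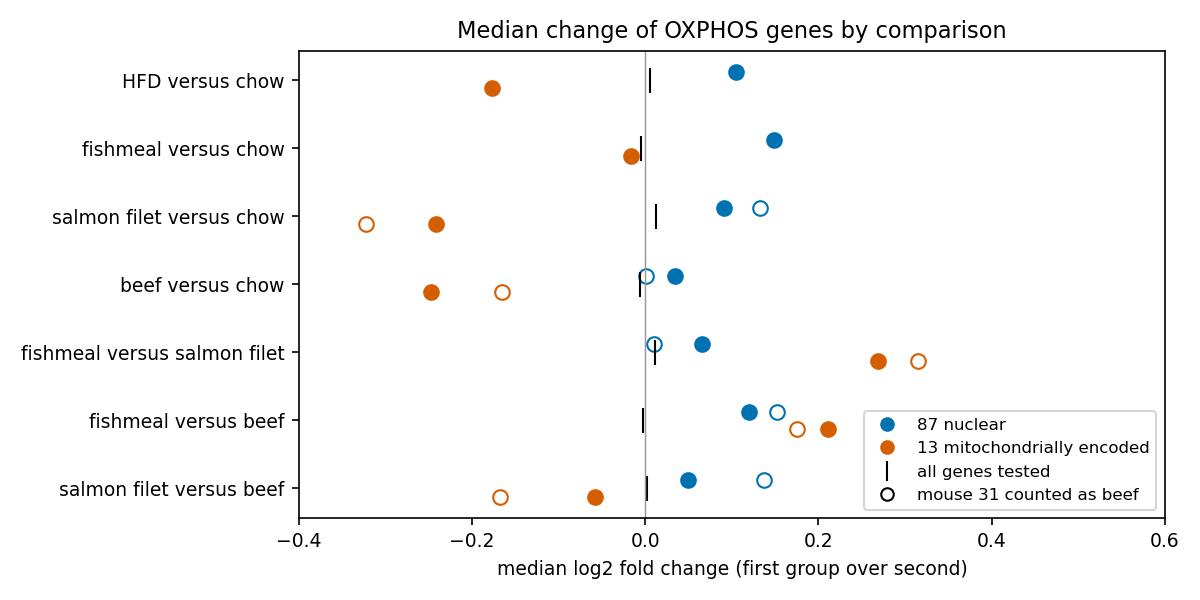
Median log2 fold change of the 87 nuclear (blue) and 13 mitochondrially encoded (orange) genes in each comparison, with a black tick for the median of all genes tested and open symbols for mouse 31 counted as beef. Nuclear medians lie between 0.034 and 0.15 and mitochondrially encoded medians between -0.25 and 0.27 with mice grouped as labelled.

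Between the protein sources, edgeR, DESeq2 and limma each called 0 OXPHOS genes. The share of all genes called by edgeR was 0.157% for fishmeal against salmon filet, 0.00607% for fishmeal against beef and 0% for salmon filet against beef, so that few genes of any kind were called. With mouse 31 counted as beef the shares were 0.17%, 0.0245% and 0%, and 0 OXPHOS genes were called. At an unadjusted p under 0.05 by edgeR, 6, 3 and 3 genes differed, all of them mitochondrially encoded, against 4.24%, 2.33% and 3.71% of all genes. The first 6 included mt-Atp6 and mt-Atp8, which lie in the copied stretch. With mouse 31 counted as beef, 6, 2 and 1 genes differed, and 1 of the first 6 was nuclear. Shares of all genes at this threshold are not given for that grouping. The nuclear medians were 0.065, 0.12 and 0.049, and without mouse 12 the first and second of these were -0.10 and -0.032. With mouse 31 counted as beef they were 0.010, 0.15 and 0.14. The third ran from -0.034 (without mouse 32) to 0.10 (without mouse 40) in fits without 1 library. The mitochondrially encoded medians were 0.27, 0.21 and -0.058, or 0.31, 0.18 and -0.17 with mouse 31 counted as beef. The last of them ran from -0.14 (without mouse 35) to 0.11 (without mouse 32) in fits without 1 library.

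The level of the nuclear OXPHOS genes was also summarised for each mouse. As a score, each mouse's median deviation from the mean log2 CPM over the nuclear genes was taken, and it ran from -0.27 in mouse 32 (beef) to 0.63 in mouse 12 (fishmeal), with a mean of -0.052 ± 0.072 (SD, n = 5) on chow and 0.026 ± 0.22 (SD, n = 15) on HFD. Mouse 12 was also highest for the genes of the cytosolic ribosome (0.54) and of the mitochondrial ribosome (0.45), and mouse 32 was lowest for both (-0.57 and -0.26). The orders differed in other mice: chow mice 2, 5, 7 and 10 had nuclear scores of -0.032 to -0.0043 and cytosolic ribosome scores of 0.16 to 0.22. The part of the ribosomal scores in the OXPHOS medians was not tested. The difference of nuclear and mitochondrially encoded scores was -0.12 ± 0.35 on chow and 0.085 ± 0.29 on HFD, and its lowest value was in mouse 1 (-0.71).

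Genes that work with OXPHOS were counted in the same fit of HFD against chow. There edgeR called 4.54% of all genes higher and 5.21% lower, and 12.1% and 12.3% passed an unadjusted p under 0.05. Of 37 assembly factors outside the symbol rule, edgeR, DESeq2 and limma called 0, and 1 was higher at an unadjusted p under 0.05. Of 24 genes for electron carriers and for ADP and phosphate exchange, the same tools called 0, with 2 higher before adjustment. Of 75 genes of the mitochondrial ribosome, which translates the mitochondrially encoded messengers, edgeR called 0, DESeq2 1 higher and limma 1 lower, and 3 were higher and 3 lower before adjustment. Of 27 genes for expression and upkeep of mitochondrial DNA, edgeR and limma called 2, both lower, and DESeq2 called 2 lower and 1 higher. The edgeR calls were Trmt10c, a subunit of the RNase P that cuts tRNAs from the mitochondrial precursor (16.8 to 11.2 CPM in the means, log2 fold change -0.59, adjusted p = 0.0241), and Fastkd5, which acts in processing of precursors that lack flanking tRNAs (7.03 to 4.89 CPM, -0.52, adjusted p = 0.0231).

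Among 9 regulators of mitochondrial biogenesis, edgeR and limma called 1 higher and 2 lower, and DESeq2 2 higher and 2 lower. The edgeR shares over all genes were 4.54% higher and 5.21% lower. By edgeR, Sirt3, a mitochondrial deacetylase, was higher on HFD (62.5 to 84.8 CPM, log2 fold change 0.44, adjusted p = 0.0117). Pprc1, a coactivator related to PGC-1 (17.7 to 11.5 CPM, -0.63, adjusted p = 0.0169), and Nrf1, a transcription factor with sites in many OXPHOS promoters (9.06 to 7.55 CPM, -0.26, adjusted p = 0.0282), were lower. Of 16 genes of the TCA cycle and pyruvate dehydrogenase, Idh3a, the catalytic subunit of NAD-dependent isocitrate dehydrogenase, was lower (36.5 to 28.5 CPM, -0.36, adjusted p = 0.0136). For comparison, 5 of 87 genes for proteins of the cytosolic ribosome were lower by edgeR, where 5.21% of all genes were called lower, with a median log2 fold change of -0.15. On the full list, which also holds 9 S6 kinase genes, edgeR called 6 lower and 1 higher, DESeq2 9 lower and 1 higher and limma 11 lower and 1 higher. At an unadjusted p under 0.05 by edgeR, 28 of its 96 tested genes were lower and 1 higher, against 12.3% and 12.1% of all genes.

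Promoters of 71 of the 87 nuclear genes were found in RefSeq sequences on GRCm38, each from 250 bases before to 50 after the start, and were searched on both strands for 3 exact motifs. The core of the NRF1 motif, GCGCATGCG, was in 10 of them (14.1%), against 1.95% of 27025 genes: Atp5g2, Atp5k, Atp5l, Cox6a1, Ndufa8, Ndufa11, Ndufaf4, Ndufaf5, Uqcr11 and Uqcrc1. The core of the YY1 motif, AAGATGGCG, was in 7 (9.86%, against 1.64%), and the ETS motif CCGGAAGT in 5 (7.04%, against 4.31%). Uqcr11 held both an NRF1 and an ETS match. The log2 fold changes of HFD over chow in the genes with the NRF1 core went both ways, from -0.39 for Ndufaf4 to 0.32 for Ndufa11. A link between the motifs and the differences by diet was not tested.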

How the data were processed

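Liver RNA of 20 mice was sequenced from stranded poly(A) libraries with paired 50-base reads. Per the labels and methods, the authors trimmed reads with BBDuk, aligned them with HISAT2 and deposited whole-number counts per gene from featureCounts, with an Ensembl annotation. The authors also deposited TPM values per gene and library. Strand and multimapping settings are not given in the sources used here. The labels and methods write the build as GRCh38, a human build name, for a mouse reference, so the build used remains uncertain. Counts were read as deposited and grouped by the labels. The members and gene lists were chosen with earlier results of these data known.

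edgeR 4.0 in R 4.3 (TMM normalization, filterByExpr, quasi-likelihood F-test, Benjamini-Hochberg adjustment over all genes tested, adjusted p under 0.05) gave every main result, and SEs belong to its log2 fold changes. DESeq2 1.42 on counts and limma 3.58 on log2(TPM + 1), for genes with a mean of at least 0.5 TPM, were alternatives. CPM use TMM-scaled library sizes, and TMM factors lay between 0.868 and 1.08. Each mouse is 1 library, so the spread between samples is that between mice. The code was tested on simulated counts. Genes named with values are all mitochondrially encoded members, the members called or, where fewer than 5 were called on HFD, the 5 with the smallest p, the most abundant nuclear gene of each complex, the isoform families, and called genes of the comparison lists. Copies on chromosome 1 were found by shared 50-base words and aligned in the GENCODE M21 transcripts (GRCm38). Of 55487 identifiers, 55141 matched this annotation. Names follow the deposited table.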

Additional observations from a re-analysis of the deposited data

Results flagged for a closer look

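In 38 values over the 4 diet groups, 152 groups of 4 to 6 mice were searched for a mouse far from the rest of its group, and 18 mice-by-value pairs stood out, where chance gives about 1 in 20 groups. Mouse 1 on chow accounted for 5, being lowest for the nuclear score (-0.18) and Cox4i1 (107 CPM) and highest for mt-Co2 (218 CPM), mt-Co3 (90.8 CPM) and Ndufaf4 (28.4 CPM). The difference of Ndufaf4 between chow and HFD was not called without this mouse, and its mitochondrially encoded share was the highest of the 20 mice. Mouse 12 on fishmeal accounted for 4, being highest in its group for Cox6b1 (233 CPM), Cox7b (167 CPM), Ndufa4 (226.8 CPM) and Atp5g1 (133 CPM). Mouse 31, whose diet label and column name disagree, accounted for 3 among the salmon filet mice, being highest for mt-Nd4l (127 CPM), mt-Nd5 (7192 CPM) and mt-Co3 (374 CPM).

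Chow mouse 7 was highest for mt-Nd3 (12.8 CPM) and lowest for Ndufa4 (114 CPM). Fishmeal mouse 14 was highest for mt-Nd4l (65.7 CPM), and salmon filet mouse 25 was highest for Atp5sl (48.2 CPM). Salmon filet mouse 23 had the lowest mitochondrially encoded share of counts in its group (5.75%). Beef mouse 32 had the lowest difference of nuclear and mitochondrially encoded scores in its group (-0.46 on the log2 scale).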

How the results depend on the processing

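With HFD against chow, 2 OXPHOS genes were called, both lower. The number was 3 with DESeq2 (1 of them higher, Atp5s), 3 with upper quartile normalization, with at least 10 counts in every library and in the fit on all 4 groups (mt-Atp8 added in each), and 3 with offsets for GC content and length (Atp5s and mt-Nd5 higher, mt-Atp6 lower). It was 1 with the mitochondrial genome left out (Ndufaf4), 1 with the clock score as a covariate (mt-Co3, higher) and 1 to 4 without 1 library. For fishmeal against chow, 0 became 1 in the fit on all 4 groups and 0 to 1 without 1 library, in both cases mt-Atp6. For salmon filet against chow, 3 became 5 with DESeq2, 1 with limma, 1 with the mitochondrial genome left out, 0 with the clock score, 1 with mouse 31 counted as beef and 1 to 3 without 1 library. For beef against chow, 1 became 0 with limma, 0 with the mitochondrial genome left out, 0 with the clock score, 2 with offsets for GC content and length, and 0 to 1 without 1 library. With the counts of copies added, 1 gene was called for fishmeal against salmon filet. With the clock score as a covariate, the median of the mitochondrially encoded genes was 0.31 for fishmeal and 0.45 for beef, both against chow, and the nuclear median for beef was -0.34. The causes were not tested. 

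Uncalled log2 fold changes of HFD over chow that changed sign were -0.041 for Cox8a and -0.061 for Atp5g2 with limma. With offsets for GC content and length they were 0.051 for mt-Cytb, -0.0040 for Cox6a1, -0.11 for Cox8a and -0.078 for Atp5g2. With the clock score they were 0.0034 for mt-Nd4, 0.21 for mt-Nd4l, 0.12 for mt-Cytb, 0.0068 for mt-Co1, -0.0036 for Cox4i1, 0.066 for Cox7a1, -0.0020 for Cox7a2l, -0.0089 for Atp5g1 and -0.16 for Atp5g2. With copies added mt-Co2 had -0.64. Without 1 library the values ran from -0.097 to 0.098 for mt-Cytb, -0.079 to 0.077 for Atp5g2, -0.67 to 0.43 for mt-Nd4l, -0.27 to 0.074 for Cox7a1, -0.041 to 0.11 for Cox8a and -0.49 to 0.11 for mt-Nd3. Over all results and alternatives, 1548 values kept their direction and side of the threshold or stayed within the spread between mice, 37 moved, 65 lost a call, 16 gained a call and 26 changed sign.

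No paired analysis was possible because each mouse belonged to 1 diet group and the labels link no mice between groups. The sum of mt-Atp6 and its copy was called for fishmeal over salmon filet (log2 1.33), with an adjusted p of 0.00569 to 0.160 without 1 library. With the mitochondrial genome left out, its genes have no median. The clock score differs between the diets, and in the fit with that score as a covariate diet and clock phase cannot be told apart. The copied stretch limits 6 mitochondrially encoded genes, and mt-Co1 and mt-Nd4 in part. Some genes, such as mt-Nd3 and Cox6b2, were measured with few counts.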

Other observations

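mt-Nd6, the only protein gene on the other strand of the mitochondrial genome, stood highest in beef mouse 35 with 1255 CPM. The other 19 mice had 229 to 705 CPM, with a median of 430 CPM. The same library had the lowest share of counts on protein coding genes (84.3%) and the lowest mitochondrially encoded share of counts (4.88%). The part of the library in this value was not tested.

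Within the copied stretch, genes did not share 1 order of mice. mt-Co3 was highest in mouse 31 (374 CPM), with 90.7% of the counts of gene and copy together on mt-Co3. mt-Nd4l was highest in the same mouse (127 CPM) and next in chow mouse 2 (108 CPM), where 92.2% of the joint counts were on mt-Nd4l. mt-Atp6 was highest in chow mouse 7 (601 CPM). mt-Co2 was highest in fishmeal mouse 12 (375 CPM). The copy Gm28661 of mt-Co2 had a log2 fold change of HFD over chow of -1.61 (edgeR adjusted p = 0.0486), while mt-Co2 itself had 0.26 (adjusted p = 0.726). Gm28661 stood at 714 CPM in chow mouse 1. The other chow mice had 35.7 to 91.2 CPM, within the HFD range of 27.4 to 174 CPM. The difference was not tested without mouse 1.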
